A study of Mus musculus with 15 samples.

Results

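The guanylate-binding protein genes of the mouse lie in 2 clusters, and 9 of them are described here: Gbp2, Gbp2b, Gbp3, Gbp5 and Gbp7 on chromosome 3, and Gbp4, Gbp6, Gbp8 and Gbp9 on chromosome 5. They were taken by name from the 44827 genes of the normalized table, and all 9 were among the 13927 genes tested. The cells were LSK cells, the lineage-negative fraction of bone marrow with Sca1 and cKit on its surface, where blood stem cells and early progenitors are enriched. They came from C57BL/6 mice in 5 groups of 3 libraries each. The groups were wild type (WT), Tet2-/- (no TET2, an enzyme that oxidizes methylated cytosine), Nras(G12D) (an activated RAS protein), Tet2-/- Nras(G12D) without leukemia (the double mutant) and Tet2-/- Nras(G12D) with leukemia (the leukemic double mutant). The alleles are described as conditional and specific to blood-forming tissue, with no Cre driver named in the sources used here, and an age of 6 months is stated for animals used for methylation. The leukemic libraries alone carry the letters BMT in their descriptions, and whatever these mark cannot be told apart from leukemia. The labels do not say whether the 3 libraries of each group are 3 animals, so p-values speak of library-to-library spread, possibly technical. In bulk RNA, fewer cells of a type and less RNA per cell cannot be told apart.

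Guanylate-binding proteins are large GTPases that cells make in response to interferons, most strongly to interferon gamma. They gather on the membranes of intracellular bacteria and parasites, break vacuoles open, coat bacteria and help inflammasomes to form. Interferon gamma acts through its receptor and the kinases JAK1 and JAK2 on genes that carry GAS elements. It also raises IRF1, and IRF and ISGF3 complexes bind interferon-stimulated response elements (ISRE). Blood stem cells respond to both kinds of interferon, and Sca1, by which LSK cells are sorted, is itself raised by them.

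The chromosome 3 genes lie side by side on the plus strand within 144 kb (GRCm38, chr3:142493978-142638008), in the order Gbp5, Gbp7, Gbp3, Gbp2b, Gbp2. That cluster is on the same chromosome as both engineered genes, 8.95 Mb from Tet2 and 39.4 Mb from Nras. The chromosome 5 genes lie on the minus strand within 280 kb (chr5:105014150-105293698), in the order Gbp8, Gbp9, Gbp4, Gbp6. Their gene models partly overlap: 1.77% of the exon bases of Gbp8, 1.16% of Gbp9 and 0.814% of Gbp4 also belong to another Gbp gene, and no exon base of the other 6 members does. Copies also resemble each other. Of the distinct 50-base stretches of Gbp6 transcripts, 45.9% also occur in Gbp10, a neighbour, and 18.1% of those of Gbp8 occur in some other Gbp transcript. The shares were 8.05% for Gbp9, 7.53% for Gbp4 and between 0% and 3.75% for the chromosome 3 members, with 1.84% for Gbp2b. Values of Gbp6 and Gbp8 are therefore less certain, since their reads could be assigned to a copy.

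Promoters of 3 chromosome 3 members are shown because genes of 1 cluster differed in level by group: Gbp2b, which stood apart, its neighbour Gbp2, and Gbp7, the most abundant. Each is the 250 bases before a RefSeq start, on the plus strand of GRCm38.p6, at chr3:142594597-142594846 for Gbp2b, chr3:142620413-142620662 for Gbp2 and chr3:142530086-142530335 for Gbp7. Capitals mark a match to the ISRE core, which is GAAA, any 2 bases and GAAA again, read on either strand.
Gbp2b: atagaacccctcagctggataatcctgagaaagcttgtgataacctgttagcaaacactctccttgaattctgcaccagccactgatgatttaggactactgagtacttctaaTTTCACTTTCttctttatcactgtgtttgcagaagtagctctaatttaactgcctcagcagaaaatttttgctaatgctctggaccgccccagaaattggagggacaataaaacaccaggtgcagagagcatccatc
Gbp2: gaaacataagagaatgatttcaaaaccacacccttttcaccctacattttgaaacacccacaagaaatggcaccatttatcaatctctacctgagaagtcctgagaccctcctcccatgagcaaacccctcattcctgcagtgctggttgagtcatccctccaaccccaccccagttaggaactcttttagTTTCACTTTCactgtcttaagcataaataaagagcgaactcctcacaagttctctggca
Gbp7: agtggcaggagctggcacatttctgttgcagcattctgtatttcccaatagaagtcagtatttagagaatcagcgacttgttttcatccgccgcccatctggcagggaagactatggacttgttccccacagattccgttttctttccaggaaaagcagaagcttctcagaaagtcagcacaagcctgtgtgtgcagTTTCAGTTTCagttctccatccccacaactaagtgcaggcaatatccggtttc
The ISRE core ended 127 bases before the start in Gbp2b, 49 bases in Gbp2 and 43 bases in Gbp7. RefSeq windows were matched for 5 of the 9 members, those on chromosome 3, with 6 windows in all because Gbp3 had 2. An ISRE core was in 5 of the 6 windows, covering all 5 genes, against 2.98% of 32851 promoters of the same length. In 1 Gbp3 window there were 2 matches that shared bases with each other. The GAS letters TTCNNNGAA were in the Gbp5 and Gbp7 windows, 2 of 6 against 7.02% of promoters, and overlapped no ISRE match. The TATA box letters TATAAA, also read on either strand, were in 1 of 6 windows, a Gbp3 window, against 12.4% of promoters. These matches describe letters only.

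Total counts ran from 22733189 to 43562909 per library, and levels are given as CPM (a gene's count scaled to a common library size). The sort markers Kit and Ly6a (the Sca1 gene) were present in all 15 libraries. Tet2 RNA was 50.7 to 65.2 CPM in WT and 35.9 to 59.8 CPM in Tet2-/-, so these groups overlapped. A count over the whole gene need not show a deleted part and does not check the Tet2 genotype, and the Nras mutation is likewise not visible in counts of Nras. Several libraries stood apart. Summed erythroid markers were 4882 and 2371 CPM in leukemic double mutant 2 and 3 against 55.3 to 625 CPM outside the leukemic group, and summed stem cell markers were lowest there, at 709 and 1322 CPM. Summed neutrophil markers reached 3962 CPM in Nras(G12D) 2 and at most 417 CPM elsewhere. The Y-linked gene Ddx3y was at or above 91.5 CPM in Tet2-/- 1 and 2, Nras(G12D) 2, double mutant 1 and leukemic double mutant 1, and no higher than 0.457 CPM in the other 10. WT thus had no library with Y-linked RNA, and leukemic double mutant 1 had Xist, the RNA of the inactive X, at 56.8 CPM beside Ddx3y at 157 CPM.

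In WT cells the chromosome 3 genes other than Gbp2b were steady and the chromosome 5 genes were not. Per kilobase of exon, which allows genes to be compared, WT levels were highest for Gbp7 at 28.9 ± 1.47 CPM per kb, Gbp2 at 24.7 ± 1.53 and Gbp3 at 23.2 ± 0.442 (SD, n = 3). Gbp2 and Gbp3, neighbours in that order, differed by about their spread. Gbp8 at 6.996 ± 3.32, Gbp9 at 5.71 ± 2.34, Gbp5 at 5.23 ± 0.262, Gbp4 at 5.03 ± 2.73 and Gbp6 at 4.73 ± 2.14 CPM per kb lay within each other's spread. Gbp2b was at 0.0446 ± 0.0273 CPM per kb in WT. Over all 15 libraries the highest value was 3.43 times the lowest for Gbp7, 3.51 times for Gbp3, 5.14 times for Gbp2 and 5.20 times for Gbp5. The same ratio was 12.2 for Gbp9, 37.3 for Gbp6, 41.7 for Gbp4 and 44.7 for Gbp8.

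**Figure D1:**
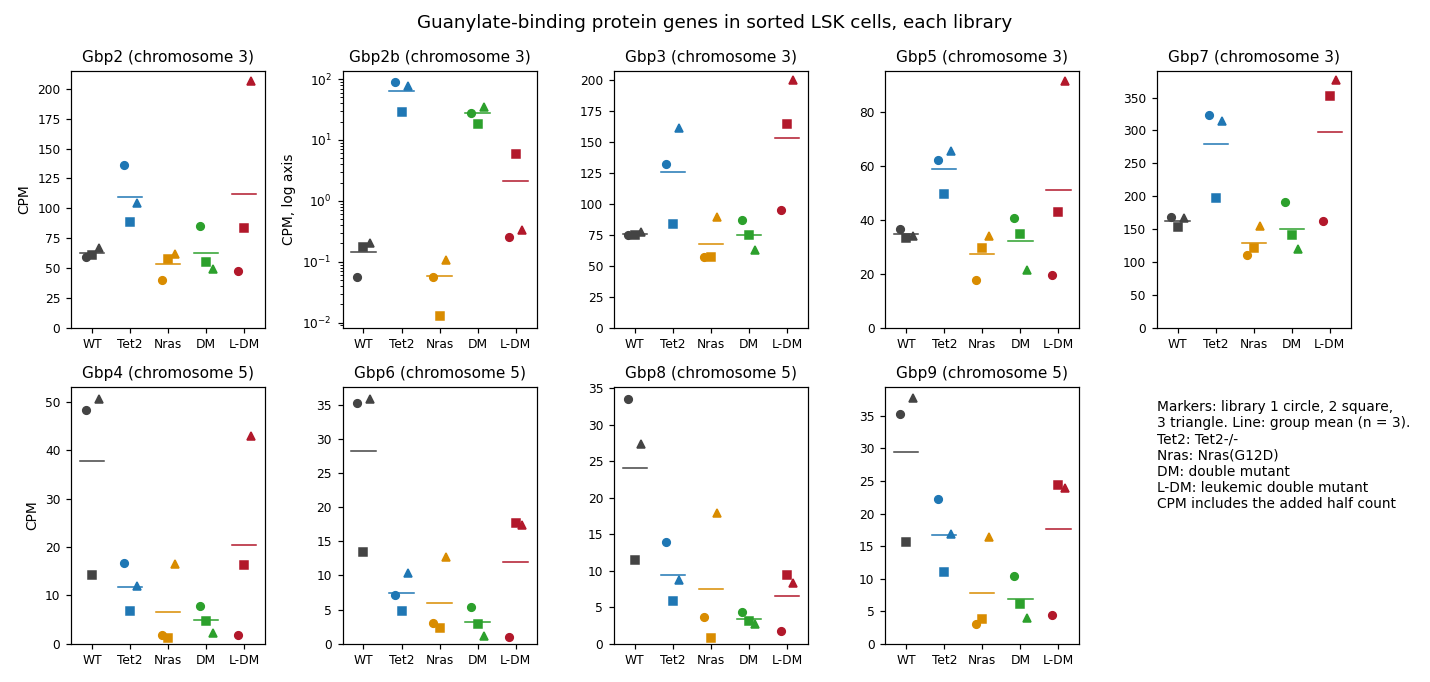
Level of each of the 9 genes in CPM (vertical axis, with the added 0.5 count, on a log axis for Gbp2b and from 0 elsewhere) in the 5 groups. Each symbol is a library and the line is the group mean of 3. Gbp2b is high in the Tet2-/- and double mutant libraries, and the chromosome 5 genes are highest in WT 1 and 3.

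Gbp2b, the gene with the clearest difference, was close to silent in WT and present in every Tet2-/- and double mutant library. It was read 1, 4 and 5 times in WT 1, 2 and 3, or 0.0381, 0.157 and 0.183 CPM. Tet2-/- libraries 1 to 3 had 88.0, 28.6 and 76.4 CPM, from 2072, 948 and 2395 counts. In Nras(G12D) it had 1, 0 and 3 counts, and the 0 in library 2 allows up to 0.0775 CPM. Double mutant libraries 1 to 3 had 28.1, 18.5 and 35.1 CPM. The lowest of these 6 libraries with Tet2 loss and no leukemia, double mutant 2, was far above the highest WT library, and Tet2-/- 2 lay within the range of the double mutant. In the leukemic double mutant, which carries the same alleles by its label, it was at 0.240, 5.80 and 0.312 CPM, below all 6 of those libraries and above all 3 WT libraries. Gbp2b passed the minimum of 1 CPM in 3 libraries through Tet2-/- and the double mutant, so a difference between groups was built into its being tested.

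In Tet2-/- against WT, Gbp2b rose by 8.83 ± 1.04 on the log2 scale (SE, limma, adjusted p = 0.00196), higher in 3 of 3 libraries. Because WT held so few counts, this value depends on the 0.5 added to each count: it was 9.06 with 0.1 added and 8.25 with 2 added, and called with each. It rose in double mutant libraries by 7.70 ± 1.04 over WT (limma adjusted p = 0.00664) and by 9.27 ± 1.04 over Nras(G12D) (adjusted p = 0.00145). These sizes depend on the added count too. With 0.1 and 2 added they were 7.93 and 7.115 over WT, and 10.25 and 8.10 over Nras(G12D), called each time. Without WT 1 the double mutant change against WT was 7.13 with an adjusted p of 0.0524. The double mutant and Tet2-/- differed by -1.13 ± 1.04 (limma adjusted p = 0.418), and the interaction of Tet2 loss with Nras(G12D) was 0.435 ± 1.469 (adjusted p = 0.875). In the leukemic double mutant Gbp2b fell by 5.06 ± 1.04 against the double mutant (limma adjusted p = 0.00586), lower in 3 of 3 libraries. With only those 2 groups in the fit the same change had an adjusted p of 0.0502. The leukemic group against WT gave 2.64 ± 1.04 (limma adjusted p = 0.0758), and 3.45 with an adjusted p of 0.0254 without leukemic double mutant 1.

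Markers of other cell types also differed between groups. Nras(G12D) overlapped Tet2-/- in each sum given here, and lay below the double mutant in the monocyte and macrophage sum. Summed over 11 dendritic cell markers, WT had 718 to 1066 CPM, Tet2-/- 1209 to 4231, Nras(G12D) 1498 to 3798, double mutants 2630 to 4101, and leukemic libraries 538 to 1222. Itgax, the defining integrin of dendritic cells, was at 4.03 to 5.68 CPM in WT, 10.96 to 35.8 in Tet2-/- and 12.5 to 16.8 in Nras(G12D). It was at 19.3 to 35.8 CPM in the double mutant and 4.35 to 13.8 in the leukemic double mutant. Summed over 9 monocyte and macrophage markers, WT had 280 to 302 CPM, Tet2-/- 350 to 1025 and the double mutant 466 to 547, against 349 to 389 in Nras(G12D) and 354 to 527 in the leukemic double mutant. The T and NK cell list of 10 summed to 169 to 212 CPM in WT, 292 to 374 CPM in Tet2-/- and 296 to 330.5 CPM in Nras(G12D). It summed to 228 to 308 CPM in the double mutant and 75.4 to 257 CPM in the leukemic double mutant. However, its defining genes Cd3e and Ncr1 were at or below 1.22 and 1.40 CPM in every library. The part of these markers in the levels of Gbp2b was not tested.

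Among the 5 genes whose log2 CPM was most like that of Gbp2b across the 15 libraries were Rpl34-ps1 (Pearson r = 0.892), Gm5900 (0.883) and Dnase1l1 (0.832). These values describe libraries that share groups. Rpl34-ps1, a pseudogene on chromosome 6 of a ribosomal protein gene, was at 20.4 to 28.6 CPM in Tet2-/- and 19.0 to 24.9 CPM in the double mutant, and at 0.805 to 3.17 CPM in the other 9 libraries. Gm5900, a gene model on chromosome 7, was at 17.7 to 26.5 and 15.5 to 16.04 CPM in the same 6 libraries and at 0.823 to 1.49 CPM in the others. The leukemic libraries, with 1.41 to 1.68 CPM of Rpl34-ps1 and 0.823 to 1.31 CPM of Gm5900, were thus with WT and Nras(G12D) for both. Rpl34 itself, on chromosome 3, showed the opposite split and is named after its values were seen: 41.8 to 58.7 CPM in Tet2-/- and 47.1 to 57.8 CPM in the double mutant, against 109 to 245 CPM elsewhere. Of the 50-base stretches of Rpl34-ps1, 71.5% also occur in Rpl34, so counts may be divided between this pair, and none occur in Gbp2b. Of 30 genes with a matched position called in Tet2-/- over WT, 3 (10%) were on chromosome 3, against 5.09% of those tested. These were Gbp2b, Rpl34 (-1.48 ± 0.24) and Alpk1 (2.26 ± 0.42). The share was 5.43% in the double mutant over WT, 5 of 92 genes. It was 27.3% over Nras(G12D), but that is 3 of only 11 genes, with Gbp2b among the 3. Tet2 lies on that chromosome too, and the part of this position was not tested.

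**Figure D2:**
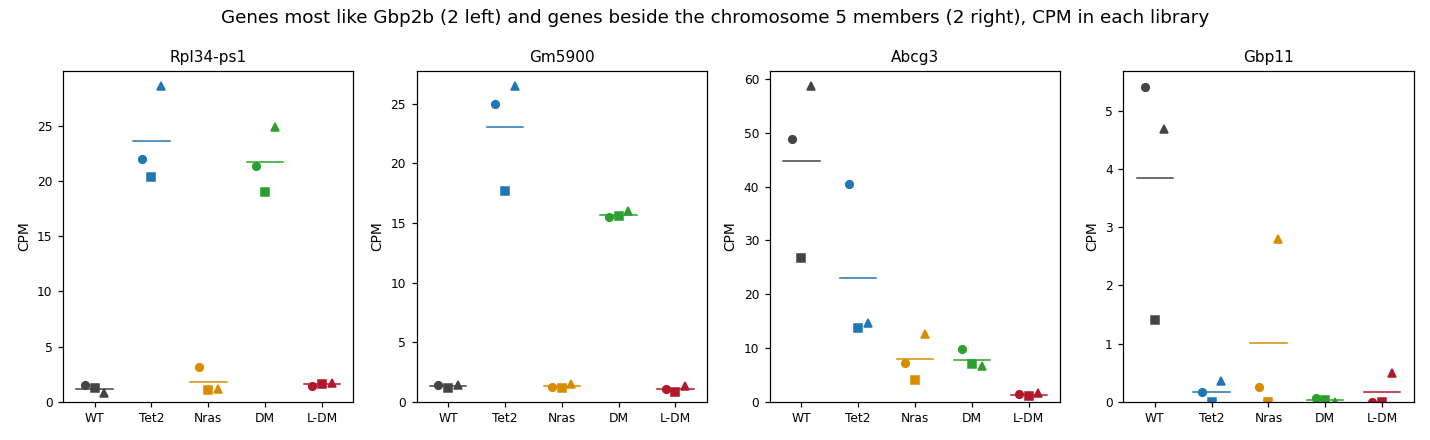
CPM (vertical axis, from 0) in each library for Rpl34-ps1 and Gm5900, the 2 genes most like Gbp2b, and for Abcg3 and Gbp11, which lie beside the chromosome 5 members. Symbols are libraries and lines are means of 3. The first pair is high in Tet2-/- and double mutant libraries and low in leukemic ones, and the second pair is highest in WT.

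The 4 other chromosome 3 genes were each higher in all Tet2-/- libraries than in any WT library, by a log2 of 0.68 to 0.80, and none of these 4 differences passed the test. Across all genes tested, 0.230% were called between Tet2-/- and WT, and 1 of the 9 Gbp members, Gbp2b. Groups without overlap were common in this comparison, at 21.9% of genes higher and 12.9% lower in Tet2-/-. Gbp7, the most abundant member, was at 168, 153 and 167 CPM in WT and at 324, 198 and 315 CPM in Tet2-/-. Its change was 0.745 ± 0.31 (SE, limma adjusted p = 0.169). Gbp2, which acts on vacuoles and on cytosolic bacteria, was at 59.4, 60.5 and 66.5 CPM in WT and at 136, 88.5 and 104 CPM in Tet2-/-, a change of 0.80 ± 0.41 (limma adjusted p = 0.248). Gbp3 was at 75.0, 74.8 and 77.4 CPM in WT and at 132, 83.9 and 162 CPM in Tet2-/- (0.68 ± 0.30, limma adjusted p = 0.195). Gbp5, known for its part in NLRP3 inflammasome assembly, was at 36.7, 33.4 and 34.0 CPM in WT and at 62.1, 49.5 and 65.3 CPM in Tet2-/- (0.76 ± 0.44, limma adjusted p = 0.299). Tet2-/- 2 was the lowest of its group for all 4 genes. With only the 10 libraries free of Y-linked RNA, a setting chosen after seeing the data that leaves 1 Tet2-/- library assumed to vary like the others, Gbp3 (log2 1.09, adjusted p = 0.0305) and Gbp7 (0.96, adjusted p = 0.0287) were called, where 15.2% of all genes were.

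With the Nras mutation added to Tet2 loss, these 4 genes were near WT values. In the double mutant Gbp7 was at 191, 140 and 120 CPM, Gbp2 at 85.2, 54.7 and 48.7 CPM, Gbp3 at 86.7, 74.5 and 62.5 CPM and Gbp5 at 40.8, 34.6 and 21.3 CPM. Each group enclosed or overlapped the WT values, with changes of -0.158 to -0.025 against WT. Against Tet2-/- all 5 chromosome 3 members had negative changes, with a median of -0.88. Only Gbp7 passed that test (-0.88 ± 0.31, limma adjusted p = 0.0452), lower in 3 of 3 libraries, so 1 of 9 members was called where 28.7% of all genes were. With a replicate block this call was lost (adjusted p = 0.0544). Deviations of same-numbered libraries of these 2 groups correlated weakly in 3 of 3 pairs (r = 0.106 to 0.137). Differently numbered libraries were not compared, so these values do not show that the numbers pair libraries. The limma adjusted p of Gbp7 rose to between 0.0596 and 0.164 when WT 1, 2 or 3, Tet2-/- 1 or 3, or double mutant 2 or 3 was left out. The count of called members was 2 without Tet2-/- 2, where 37.6% of all genes were called, and 3 without leukemic double mutant 1, where 35.9% were. That library shares only the estimate of spread. In Nras(G12D), Gbp7 was at 110, 121 and 154 CPM and the 4 genes had changes of -0.19 to -0.41 against WT, none called. The interaction of both mutations was -0.50 to -0.57 for the 4 genes, with limma adjusted p-values from 0.471 to 0.639; no gene at all was called for the interaction (0% of those tested, 2924 genes at an unadjusted p under 0.05).

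In the leukemic double mutant the same 4 genes were spread widely between libraries. Gbp2 was at 47.0, 83.0 and 207 CPM, Gbp3 at 94.9, 165 and 201 CPM, Gbp5 at 19.3, 42.7 and 91.6 CPM and Gbp7 at 162, 353 and 378 CPM. Library 1 was the lowest of the group for all 4, and library 3 the highest. Gbp3 rose by 0.95 ± 0.30 over WT (limma adjusted p = 0.0357), higher in 3 of 3 libraries, and was the 1 member of 9 called where 24.7% of all genes were. Without overlap and higher were 24.0% of all genes, and Gbp2b and Gbp3 among the members. Against the double mutant Gbp3 rose by 0.99 ± 0.30 (adjusted p = 0.0316) and Gbp7 by 0.92 ± 0.31 (adjusted p = 0.0440), although the Gbp7 values of these groups overlapped. That, with the fall of Gbp2b, made 3 of 9 members called, against 24.3% of all genes. The Gbp3 call against WT was lost without any WT library or without leukemic double mutant 2 or 3 (limma adjusted p = 0.0821 to 0.148), and with total counts, quantile or median scaling (adjusted p = 0.0674 to 0.108). Against the double mutant the Gbp3 call was lost without double mutant 2 or 3 or leukemic double mutant 2 or 3 (adjusted p = 0.0791 to 0.133). The Gbp7 call was lost without each of these, without any WT library and without Tet2-/- 1 or 3 (adjusted p = 0.0516 to 0.183). Total counts or quantile scaling also ended both calls (adjusted p = 0.0626 to 0.140). Left without leukemic double mutant 1, the library with Y-linked RNA beside Xist, the test called 4 members against WT, all higher (Gbp2, Gbp2b, Gbp3 and Gbp7), where 37.7% of all genes were called. Against the double mutant it then called 8 members, 7 higher and Gbp2b lower, with Gbp8 as the exception, where 38.0% of all genes were called. The 2 leukemic libraries with the higher Gbp values are those with erythroid markers at 4882 and 2371 CPM, against 481 CPM in library 1, and the part of this in the result was not tested.

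**Figure D3:**
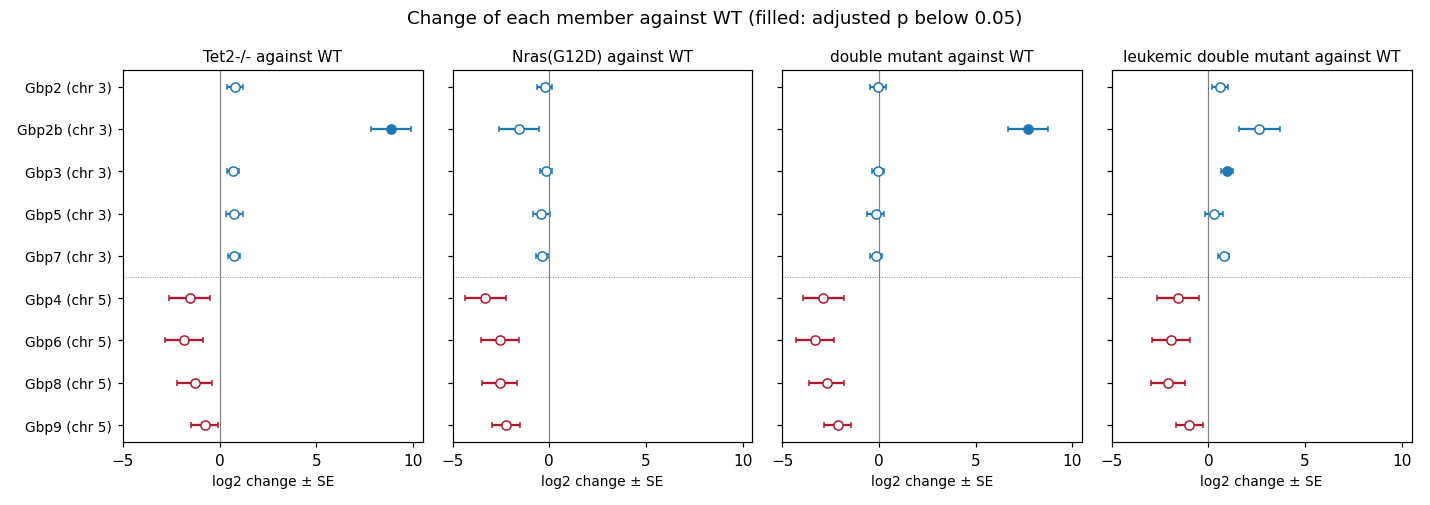
Log2 change of each member against WT (horizontal axis, point with its standard error) in Tet2-/-, Nras(G12D), the double mutant and the leukemic double mutant, with chromosome 3 members in blue above chromosome 5 members in red. Filled points have an adjusted p below 0.05. All points of the chromosome 5 members lie below 0, and the Gbp2b points for Tet2-/- and the double mutant lie far to the right.

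The 4 chromosome 5 genes had negative changes against WT in all 4 mutant groups, the reverse of the chromosome 3 genes in Tet2-/-, and none of these changes passed the test. Gbp4 was at 48.3, 14.1 and 50.6 CPM in WT, at 16.7, 6.70 and 11.96 CPM in Tet2-/-, and at 1.77, 1.21 and 16.5 CPM in Nras(G12D). Double mutant libraries had 7.89, 4.76 and 2.28 CPM of Gbp4, and leukemic ones 1.85, 16.3 and 42.9 CPM. WT 1 and 3 were thus high, and WT 2 was below libraries of 3 mutant groups. Gbp6, a member with many shared stretches, was at 35.2, 13.5 and 35.8 CPM in WT and at 5.36, 2.92 and 1.09 CPM in the double mutant. Gbp8 was at 33.5, 11.4 and 27.4 CPM in WT and at 4.29, 3.17 and 2.74 CPM in the double mutant. Gbp9 was at 35.3, 15.6 and 37.7 CPM in WT and at 10.4, 6.09 and 3.90 CPM in the double mutant. For all 4, WT 2 was the lowest WT library, and every double mutant library was below every WT library.

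In the double mutant against WT, the log2 changes were -2.88 ± 1.07 for Gbp4, -3.31 ± 0.98 for Gbp6, -2.71 ± 0.90 for Gbp8 and -2.13 ± 0.71 for Gbp9 (SE, limma, adjusted p = 0.198, 0.112, 0.150 and 0.149). All 4 groups of values were without overlap, where 20.8% of all genes were so in the lower direction and 0.682% were called in either direction. With only the libraries free of Y-linked RNA, a setting chosen after seeing the data, the changes were -3.30, -3.83, -2.89 and -2.49 in the same order. That fit drops double mutant 1, the highest double mutant library for all 4 genes, and leaves 1 Tet2-/- library. With a Y-linked covariate and all libraries, 1 Gbp member was called, against 2.84% of all genes. Gbp6 was called without double mutant 1 (-3.83, limma adjusted p = 0.0486, with 7.12% of all genes called). It was called without leukemic double mutant 1 too (-3.31, limma adjusted p = 0.0417, with 0.725% of all genes called).

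In the single mutants the chromosome 5 genes had negative changes against WT that did not pass the test. The changes in Tet2-/- against WT had a median of -1.43 and limma adjusted p-values of 0.255 to 0.501, and only Gbp6 was without overlap, at 7.18, 4.77 and 10.3 CPM. In Nras(G12D) against WT the median was -2.55, with -3.30 ± 1.07 for Gbp4, -2.53 ± 0.98 for Gbp6, -2.57 ± 0.90 for Gbp8 and -2.25 ± 0.71 for Gbp9. None was called after adjustment (limma adjusted p = 0.897 to 0.984), nor was any of the 13927 genes (0%, with 577 at an unadjusted p under 0.05), while unadjusted p-values for these 4 ran from 0.0065 to 0.0213. Nras(G12D) 3 differed from the other libraries of its group for every chromosome 5 gene: Gbp8 was at 3.69, 0.749 and 17.9 CPM in libraries 1 to 3 and Gbp9 at 3.10, 3.797 and 16.4 CPM. Gbp6 in Nras(G12D), at 2.99, 2.27 and 12.8 CPM, was the 1 of 4 genes that did not overlap WT, against 6.53% of all genes lower without overlap. Leaving out Nras(G12D) 3 moved the median change to -3.50, with no member called. The double mutant differed from Nras(G12D) by 0.42 ± 1.07 for Gbp4, -0.78 ± 0.98 for Gbp6, -0.14 ± 0.90 for Gbp8 and 0.12 ± 0.71 for Gbp9, intervals too wide to tell a small change from none. In that comparison Gbp2b was the 1 member of 9 called, against 0.0790% of all genes. The double mutant against Tet2-/- gave -1.32 to -1.45, none called (limma adjusted p = 0.157 to 0.359). The interaction was 0.90 to 1.98 for the 4 genes, with limma adjusted p-values of 0.442 to 0.649.

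The leukemic libraries were divided for the chromosome 5 genes as for the chromosome 3 genes. Gbp6 was at 0.961, 17.7 and 17.3 CPM, Gbp8 at 1.72, 9.35 and 8.36 CPM and Gbp9 at 4.46, 24.4 and 24.0 CPM. Library 1 was the lowest of its group for these 3 and for Gbp4. Gbp4 was at 16.3 CPM in library 2, near WT 2, and at 42.9 CPM in library 3, closer to WT 1 and 3. Against WT the median change was -1.76, with none called (limma adjusted p = 0.101 to 0.313), and only Gbp8 was without overlap, as were 23.1% of all genes in the lower direction. Against the double mutant it was 1.22, with none called (adjusted p = 0.252 to 0.640). Without leukemic double mutant 1, Gbp4 (2.58, limma adjusted p = 0.0487), Gbp6 (2.76, adjusted p = 0.0113) and Gbp9 (1.94, adjusted p = 0.0306) were called higher than in the double mutant. In that fit 38.0% of all genes were called. Against WT the median without that library was -0.425, and none of the 4 was called.

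The order of the groups by mean CPM differed between the clusters. For Gbp7 it was leukemic double mutant (298 ± 118), Tet2-/- (279 ± 70.5), WT (162 ± 8.23), double mutant (151 ± 36.6) and Nras(G12D) (128 ± 22.9; SD, n = 3). Gbp2, Gbp3 and Gbp5 likewise had the leukemic double mutant and Tet2-/- on top, with Tet2-/- first for Gbp5, and Nras(G12D) last. For Gbp4 the order was WT (37.7 ± 20.4), leukemic double mutant (20.4 ± 20.8), Tet2-/- (11.8 ± 4.997), Nras(G12D) (6.50 ± 8.67) and double mutant (4.98 ± 2.81). WT came first for all 4 chromosome 5 genes and the double mutant last for all 4. In both orders, neighbouring groups did not differ beyond their spread, apart from Tet2-/- above WT for Gbp7, whose libraries did not overlap.

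Across libraries, members moved with their own cluster more than with the other. Over the 15 libraries, Pearson correlations of log2 CPM were 0.788 to 0.966 among Gbp2, Gbp3, Gbp5 and Gbp7, 0.880 to 0.973 among the chromosome 5 genes, and 0.321 to 0.673 between these sets. Those values describe libraries that share groups, and reads that copies share can add to them. Gbp2b went with neither, at 0.378 to 0.441 with its chromosome 3 neighbours and -0.171 to 0.063 with the chromosome 5 genes. Per kilobase of exon, the geometric mean of the 4 chromosome 3 genes was 2.44, 6.48 and 2.52 times that of the chromosome 5 genes in WT 1, 2 and 3. The ratio was 12.6, 17.4 and 14.9 in Tet2-/-, 20.8, 44.0 and 5.89 in Nras(G12D), then 16.7, 20.8 and 29.3 for double mutant libraries and 40.0, 9.48 and 12.6 for leukemic ones. WT 1 and 3 had the lowest ratios of all 15 libraries, and Nras(G12D) 3 was below WT 2.

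**Figure D4:**
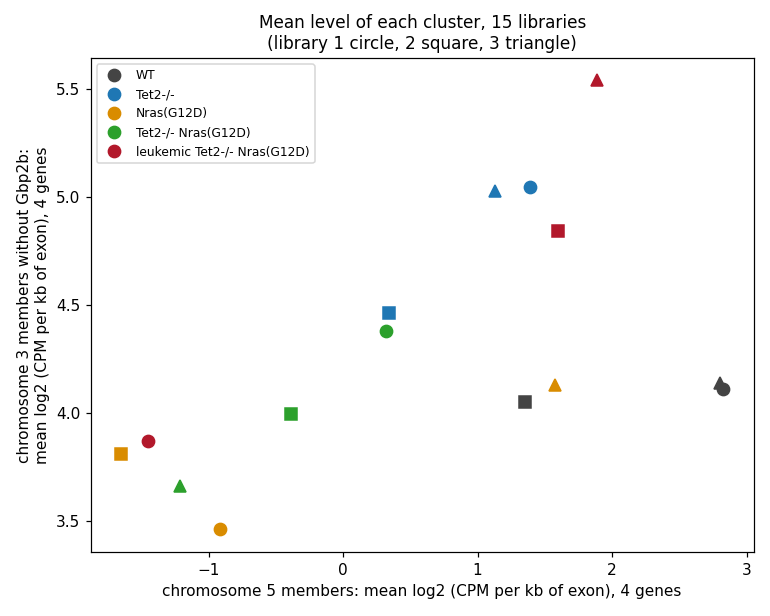
Mean log2 CPM per kb of exon of the 4 chromosome 5 genes (horizontal axis) and of the 4 chromosome 3 genes without Gbp2b (vertical axis), each symbol being 1 of 15 libraries. WT 1 and 3 lie farthest right, and Tet2-/- libraries and leukemic libraries 2 and 3 lie at the top. Leukemic library 1 lies with Nras(G12D) 1 and 2 and double mutant 3 at lower left.

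Near the chromosome 5 cluster, Abcg3, Gbp10 and Gbp11 also had their highest library in WT, while its neighbours as a whole changed in both directions. Within 2 Mb of its outermost members 22 other genes were tested. In the double mutant over WT 2 of them were called lower and 0 higher, with a median log2 change of 0.15. In the leukemic double mutant over WT 5 were called lower and 4 higher, with a median of 0.18 and 24.7% of all genes called. The 4 higher ones were Nudt9 (2.19), Tgfbr3 (1.89), Ptpn13 (1.73) and Lrrc8c (1.45), and Pkd2 (-1.46), D930016D06Rik (-1.28) and Zfp951 (-1.19) were among the 5 lower. Abcg3, a transporter gene next to Gbp8, was at 48.8, 26.8 and 58.7 CPM in WT, 40.6, 13.7 and 14.6 CPM in Tet2-/-, and 7.23, 4.08 and 12.6 CPM in Nras(G12D). Double mutant libraries had 9.75, 7.06 and 6.60 CPM of Abcg3 and leukemic ones 1.37, 1.05 and 1.62 CPM. It fell by 2.46 ± 0.47 in the double mutant over WT (SE, limma adjusted p = 0.031) and by 4.98 ± 0.47 in the leukemic double mutant (adjusted p = 0.000177). Gbp11, a further Gbp gene of that cluster, was at 5.41, 1.41 and 4.69 CPM in WT, at 2.79 CPM in Nras(G12D) 3 and no higher than 0.499 CPM in the other 11. It thus passed the minimum of 1 CPM in 3 libraries only through WT and Nras(G12D) 3, and a fall against WT was built into its being tested. The change in the leukemic double mutant over WT was -5.98 ± 1.79 (limma adjusted p = 0.0271), with 0 counts in 2 leukemic libraries, so the size depends on the added count. Gbp10 was at 2.21, 1.17 and 2.34 CPM in WT, and outside WT passed 0.5 CPM in Nras(G12D) 3 (0.805) and leukemic double mutant 3 (1.68). It passed the minimum only through WT and leukemic double mutant 3, so a high level in WT was built into its being tested too. Zfp951, a zinc finger gene, was the other neighbour called in the double mutant over WT (-1.46 ± 0.30, adjusted p = 0.044). Of the 8 genes tested within 2 Mb of the chromosome 3 cluster none was called in Tet2-/- or the double mutant over WT. Pkn2 and Hs2st1 were called higher in the leukemic double mutant over WT, at 1.195 ± 0.28 and 1.21 ± 0.37. Pkn2, Hs2st1 and Lmo4 were called higher in the double mutant over Tet2-/-, at 0.79 ± 0.28, 1.62 ± 0.37 and 1.72 ± 0.42. They were 3 of the 8, where 20.1% of all genes were called higher. The Pkn2 call there was lost with the replicate block (limma adjusted p = 0.061).

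The genes with log2 CPM most like Gbp7 were Irgm1 (r = 0.940), 9330175E14Rik (0.939), Tank (0.937), Il18bp (0.934) and Mtbp (0.932). Irgm1, an immunity-related GTPase gene raised by interferon gamma, was at 166, 155 and 169 CPM in WT and 275, 193 and 334 CPM in Tet2-/-. Nras(G12D) libraries had 94.3, 179 and 162 CPM of Irgm1, double mutant libraries 188, 146 and 126 CPM and leukemic libraries 125, 366 and 402 CPM. The genes most like Gbp4 were Ppp5c (0.853), Gbp10 (0.822), Slc25a22 (0.814), BC002163 (0.809) and Gm14295 (0.785).

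The rest of the interferon pathway is given from 7 lists. Ifng, the ligand gene, is in none of them and was looked up for this account: it had 0 counts in all 12 non-leukemic libraries and at most 0.125 CPM in the leukemic ones. Of 17 receptor, JAK-STAT and IRF genes, none was called in Tet2-/- over WT (9 above 0 and 8 below, median 0.09). Irf1, named outside the rule for named genes, was at 160, 156 and 180 CPM in WT and 134, 233 and 135 CPM in Tet2-/-. Ciita, the master regulator of MHC class II, rose in the double mutant over WT (2.50 ± 0.52, limma adjusted p = 0.0448), the 1 gene of 17 called, against 0.682% of all genes. The receptor genes Ifngr1 (0.70 ± 0.19) and Ifngr2 (1.80 ± 0.48) rose in the leukemic double mutant over WT, and Irf2 fell by 1.42 ± 0.25 there (adjusted p = 0.017, 0.0167 and 0.00305), which made 3 of 17 called where 24.7% of all genes were. Of 8 feedback inhibitors, none was called in Tet2-/- or the double mutant over WT, and 2 of 8, Socs1 (3.87 ± 0.83) and Socs3 (2.55 ± 0.60), rose in the leukemic double mutant over WT, against the same 24.7%.

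Of 12 other genes from GTPase families linked to interferon, 9 were above 0 in Tet2-/- over WT. Their median was 0.77, against a median of -0.005 over all genes, and none was called. Between the double mutant and Tet2-/-, 11 of these 12 were below 0 with a median of -0.87, and the 1 called gene, Irgq, rose (1.33 ± 0.44, limma adjusted p = 0.0364). Of 20 tested interferon gamma targets, H2-Aa was the 1 called in Tet2-/- over WT (2.81 ± 0.53, adjusted p = 0.0486) and in the double mutant over WT (2.81 ± 0.53, adjusted p = 0.0294). Those comparisons called 0.230% and 0.682% of all genes. H2-Aa, H2-Ab1, Cd74 and Ciita also stand among the 11 dendritic cell markers, whose sums differed between these groups as given above, and the part of such cells was not tested. Of 20 type I interferon targets, 16 were above 0 in Tet2-/- over WT (median 0.42) and none was called. Against Tet2-/-, 19 of these 20 were below 0 for the double mutant (median -0.91) and 6 were called lower, among them Rsad2 (-1.47 ± 0.40), Rtp4 (-1.14 ± 0.31), Oas1a (-1.003 ± 0.28) and Ifit2 (-0.96 ± 0.29), and 1 was called higher. The background there was 28.7% of all genes called, 8.57% lower. Both comparisons use the Tet2-/- libraries, so their opposite signs are not independent. Between the double mutant and Tet2-/-, interferon gamma targets had 10 above 0 and 10 below, with 3 called in each direction. The receptor, JAK-STAT and IRF list had 3 called each way (6 with the replicate block, 2 of them lower). Feedback inhibitors had 4 called higher and 2 lower. Inflammasome and autophagy partners had 2 called each way, and NF-kB and cytokine genes 4 higher and 0 lower.

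Of 16 inflammasome and autophagy partners of Gbp proteins, Lgals3, a galectin that marks broken vacuoles, was the 1 called in Tet2-/- over WT (2.39 ± 0.39, limma adjusted p = 0.0219) and in the double mutant over WT (2.71 ± 0.39, adjusted p = 0.0104). Of all genes, 0.230% and 0.682% were called there. In the leukemic double mutant over WT, Atg16l1 (1.81 ± 0.30), Atg3 (1.93 ± 0.41) and Il1b (2.50 ± 0.71) rose and Il18 fell by 2.92 ± 0.50, so 4 of 16 were called where 24.7% of all genes were. Of 9 tested NF-kB and cytokine genes, none was called in Tet2-/- over WT. Il6 was the 1 called in the double mutant over WT (3.284 ± 0.50, limma adjusted p = 0.0112), against 0.682% of all genes. It also rose in the leukemic double mutant over WT (2.14 ± 0.50, limma adjusted p = 0.00962), as 1 of 2 called among these 9, against 24.7%. With all Tet2-null groups together against WT and Nras(G12D), Gbp2b was the 1 Gbp member called (7.18 ± 0.67, limma adjusted p = 0.000148), against 0.381% of all genes. Its pooled change was 7.77 with 0.1 added to each count and 6.35 with 2 added. The Tet2-null groups were not alike: leukemic libraries had 0.240, 5.80 and 0.312 CPM of Gbp2b, which was not called there over WT. Gbp3 and Gbp7 were also called in the pooled comparison without leukemic double mutant 1 (0.73 and 0.77, adjusted p = 0.0369 and 0.0198), where 2.95% of all genes were.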

How the data were processed

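RNA of sorted LSK cells was measured in 15 libraries, 5 groups of 3. The authors' table holds deposited log2 values, read from the values as log2 CPM with 0.5 added to each count and 1 to the scaled library size: 100% of values return whole counts within 1e-06. The scaled size was 0.813 to 1.118 times the total. The tools named in the submitters' processing notes are STAR 2.4.0f1, limma 3.28.21, edgeR 3.14.0 and bcl2fastq; counter, annotation and strand setting were not given in the sources used here. Printed CPM are recovered counts over scaled sizes. A count of 0 allows 3 counts, 0.0775 to 0.127 CPM, for counting error only.

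Genes at 1 CPM or more in at least 3 libraries were tested on the deposited values with limma 3.58.1 in R 4.3.3 (group means, all libraries, trend, 10 residual degrees of freedom), two-sided, with Benjamini-Hochberg adjustment over all 13927 and a threshold of 0.05. The fit was tested on simulated data. Positions are from GENCODE M21 (GRCm38), matched by symbol, and promoters from RefSeq. Alternatives were other scalings, filters and added counts, voom sample weights, fits of the compared groups, a replicate block, a Y-linked covariate and leaving out each library. As no label says what a replicate number marks, deviations from group means were correlated between same-numbered libraries. They were above 0.1 in every such pair for Tet2-/- with the double mutant alone (0.106 to 0.137). The blocked value therefore stands beside that comparison where it changes a call.

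The members and lists were chosen with earlier results of these data known. Named genes are the members, Tet2, Nras, up to 4 called genes of smallest adjusted p per list and comparison or else the 2 of smallest p, the 5 genes most correlated with Gbp2b, Gbp7 and Gbp4, and called neighbours within 2 Mb. Not every gene the rule names is reported here.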

Additional observations from a re-analysis of the deposited data

How the results depend on the processing

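The Gbp2b rise in Tet2-/- over WT, in the double mutant over Nras(G12D) and in the pooled Tet2-null comparison kept direction and call under every alternative run. The numbers of the 9 members called moved elsewhere, and so did the share of all genes called, given in brackets. In Tet2-/- over WT 1 was called (0.230%), 6 with voom sample weights (49.8%) and 3 with only libraries free of Y-linked RNA (15.2%), a setting chosen after seeing the data. In the double mutant over WT 1 was called (0.682%), 3 with only the compared groups (4.12%), 5 with voom (26.3%) and 5 without Y-linked libraries (12.8%). In the leukemic double mutant over WT 1 was called (24.7%), 0 with total counts, median centring, no filter or only the compared groups (9.19% to 27.0%), 5 with voom (60.5%), 2 with a Y-linked covariate (27.7%) and 4 without Y-linked libraries (46.6%). For the double mutant over Tet2-/- 1 was called (28.7%), 0 with no filter (8.56%), 5 with median centring (43.5%), 4 with only the compared groups (32.9%), 7 with voom (63.2%), 2 with the covariate (28.1%) and 2 without Y-linked libraries (34.2%). In the leukemic over the non-leukemic double mutant 3 were called (24.3%), 1 with total counts, quantile normalization or no filter (8.64% to 26.6%), 0 with only the compared groups (5.32%), 8 with voom (56.7%) and 8 without Y-linked libraries (43.3%). The interaction had 0 (0%), and 2 with voom (42.5%). The pooled Tet2-null comparison had 1 (0.381%), 4 with voom (8.78%) and 3 without Y-linked libraries (6.98%). The cause of these shifts was not tested.

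Leaving out each library gave 1 to 1 called in Tet2-/- over WT, 0 to 0 in Nras(G12D) over WT, 0 to 2 in the double mutant over WT, 0 to 4 in the leukemic double mutant over WT, 0 to 3 in the double mutant over Tet2-/-, 1 to 1 over Nras(G12D), 1 to 8 in the leukemic over the non-leukemic double mutant, 0 to 0 for the interaction and 1 to 3 for the pooled comparison. The count against WT in leukemia was 0 without WT 1, 2 or 3 or leukemic 2 or 3, and 2 without Nras(G12D) 2 or 3. Total counts scaling moved the median of all genes to -0.265 in leukemia over WT and -0.336 over the double mutant, and median centring to -0.465 in the double mutant over Tet2-/-.

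With a replicate block, 0 members were called in the double mutant over Tet2-/- (Gbp7 -0.88, limma adjusted p = 0.0544), and 2 in the leukemic over the non-leukemic double mutant, where Gbp7 had 0.92 and an adjusted p of 0.0503; no other member's call changed. Deviations of same-numbered libraries correlated at -0.346 to 0.294, above 0.1 in 12 of 30 pairs. Tet2-/- and the double mutant were the 1 pair of groups with 3 of 3 above 0.1. Single pairs elsewhere were higher, up to 0.294 for library 2 of Tet2-/- and of Nras(G12D). Without a comparison of differently numbered libraries, these values do not show what a number marks. Counts of 1 to 5 for Gbp2b in WT limit the precision of its fold.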
